A study of Mus musculus with 45 samples.

Results

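The 10 genes described here serve redox defence or are linked to Nrf2, the transcription factor encoded by Nfe2l2. They were chosen by name and found as the rows of the count table whose Ensembl identifiers map to the mouse symbols Nfe2l2, Keap1, Srxn1, Txnrd1, Hmox1, Nqo1, Gclc, Gclm, Slc7a11 and Prdx1. They are 10 of 54532 genes in the table, of which 37048 had at least 1 read, and all 10 were detected in every library. RNA was sequenced from hippocampal primary neurons of newborn C57BL/6N mice, with no genetic change, grown with B27 and 1% rat serum, given cytosine arabinoside against dividing cells on day 3 in vitro and treated on day 10 or 11 by the labels and on day 11 by the methods. Controls were left untreated. Bicuculline (Bic, 50 µM), the GABA type A receptor antagonist that starts AP firing, was given for 0.5, 1 or 2 h. In the short protocol (SP), 0.5 h of Bic was followed, still in Bic, by 0.5 h with TTX (tetrodotoxin, 1 µM), the sodium channel toxin that silences AP firing, or with TTX and NMDA (30 µM, TTX/NMDA). The long protocol (LP) added TTX or TTX/NMDA for a further 1 h after 1 h of Bic, or TBOA (50 µM), a blocker of glutamate uptake. The 9 conditions were each sequenced from the culture preparations 1, 3, 6, 7 and 8, which makes 5 libraries a condition and 45 in all.

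Nrf2 is held in the cytoplasm by KEAP1, which hands it to a CUL3 ubiquitin ligase for degradation. Oxidants and electrophiles modify KEAP1, and Nrf2 then enters the nucleus and binds antioxidant response elements together with small Maf proteins, against competition from BACH1. Its targets refill glutathione and thioredoxin, the thiol systems that remove peroxides, and in brain tissue this program is best known from astrocytes. NMDA receptor overactivation is a textbook source of oxidative load in neurons.

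Promoter stretches of 4 members that were called higher in a Bic or TTX/NMDA comparison are shown, because they hold letters of the antioxidant response element that Nrf2 binds or of AP-1 sites, which activity-induced Fos and Jun proteins bind. RefSeq windows (GRCm38.p6) of 250 bases before and 50 bases after a start were at hand for 8 members, in 10 windows, 3 of them for Txnrd1. They were searched on both strands for the antioxidant response core TGACNNNGC, the AP-1 motif TGANTCA and the cAMP response motif TGACGTCA. The stretches below run 5′ to 3′ on the gene's strand and stop at the more upstream of the RefSeq and GENCODE starts, with matches in capitals. They lie at chr2:152105274-152105515 (+ strand) for Srxn1, chr2:75704664-75704913 (− strand) for Nfe2l2, chr3:122245307-122245556 (+ strand) for Gclm and chr4:116685349-116685543 (+ strand) for Prdx1.
Srxn1: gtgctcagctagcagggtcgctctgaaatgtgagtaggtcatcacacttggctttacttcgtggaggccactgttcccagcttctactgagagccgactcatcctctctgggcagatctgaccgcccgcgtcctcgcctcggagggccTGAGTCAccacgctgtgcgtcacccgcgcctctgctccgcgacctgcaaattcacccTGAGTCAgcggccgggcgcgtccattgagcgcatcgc
Nfe2l2: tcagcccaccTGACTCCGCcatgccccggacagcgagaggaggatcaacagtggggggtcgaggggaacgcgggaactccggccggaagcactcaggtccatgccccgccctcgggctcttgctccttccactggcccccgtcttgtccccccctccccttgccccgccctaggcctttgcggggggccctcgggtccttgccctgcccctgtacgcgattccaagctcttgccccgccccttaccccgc
Gclm: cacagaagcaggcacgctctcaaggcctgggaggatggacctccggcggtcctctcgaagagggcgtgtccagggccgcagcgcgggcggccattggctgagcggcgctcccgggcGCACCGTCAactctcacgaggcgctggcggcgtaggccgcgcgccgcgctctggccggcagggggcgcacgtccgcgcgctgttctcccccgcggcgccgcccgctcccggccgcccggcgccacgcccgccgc
Prdx1: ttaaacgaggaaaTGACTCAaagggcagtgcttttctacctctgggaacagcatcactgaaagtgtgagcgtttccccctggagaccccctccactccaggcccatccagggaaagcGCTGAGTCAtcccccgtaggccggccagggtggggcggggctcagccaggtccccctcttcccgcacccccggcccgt
Srxn1 held 2 AP-1 matches, TGAGTCA, beginning 102 and 45 bases before its RefSeq start, and an antioxidant response core on the reverse strand 28 bases after it. In Nfe2l2 the core TGACTCCGC began 240 bases before the start. Gclm held GCACCGTCA, the core read on the reverse strand, 134 bases before the start. Prdx1 held 2 AP-1 matches, and the one at 131 bases before the start lies inside its reverse-strand core GCTGAGTCA. The core was thus in 5 of the 8 members, counting 1 of the 3 Txnrd1 windows, and in 12.4% of all 32851 RefSeq windows. AP-1 letters were in 2 members and in 7.81% of all windows, and the cAMP response letters were in 0 members and in 1.79% of all windows. The windows of Keap1, Nqo1 and Slc7a11 held none of the 3 motifs. These are letter matches only.

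Levels are given as CPM, counts relative to TMM-scaled library size, from libraries with 11316580 to 81129276 counts on genes. Member counts per library ran from 13 to 150 for Nqo1, the weakest member, and up to 9932 for Prdx1. Per kilobase of annotated exon, control levels were highest for Prdx1, the abundant cytosolic peroxiredoxin (41.1 ± 9.68 CPM per kilobase, SD, n = 5), and lowest for Nqo1, a quinone reductase (0.94 ± 0.24). In between lay Srxn1, which repairs overoxidized peroxiredoxins (23.9 ± 0.53), Keap1 (17.04 ± 1.28), and Gclc, the catalytic subunit of glutamate-cysteine ligase (16.1 ± 0.90). Txnrd1, which reduces thioredoxin, had 15.4 ± 0.81, Hmox1, the inducible haem oxygenase, 12.9 ± 1.91, and Gclm, the modifier subunit of the ligase, 9.26 ± 0.89 CPM per kilobase. Nfe2l2 itself stood at 3.06 ± 0.98 and Slc7a11, the cystine carrier of system xc-, at 1.13 ± 0.31.

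The 10 neuronal markers checked summed to between 7122 and 9747 CPM per library, as labelled, and 9 astrocyte markers to between 974.0 and 2288 CPM. Oligodendrocyte lineage markers (8 genes) summed to between 100.9 and 313.0 CPM, those of endothelial cells and fibroblasts (6) to between 48.6 and 130.9, and those of microglia (7) to between 4.61 and 8.94. At 0 in some libraries were only P2ry12 (6 libraries), Itgam (3), Sox10 (5) and Cldn5 (27). In these bulk libraries, a change in the share of a cell type cannot be told apart from a change in RNA per cell. The plot of the members' levels shows all 45 libraries.

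**Figure D1:**
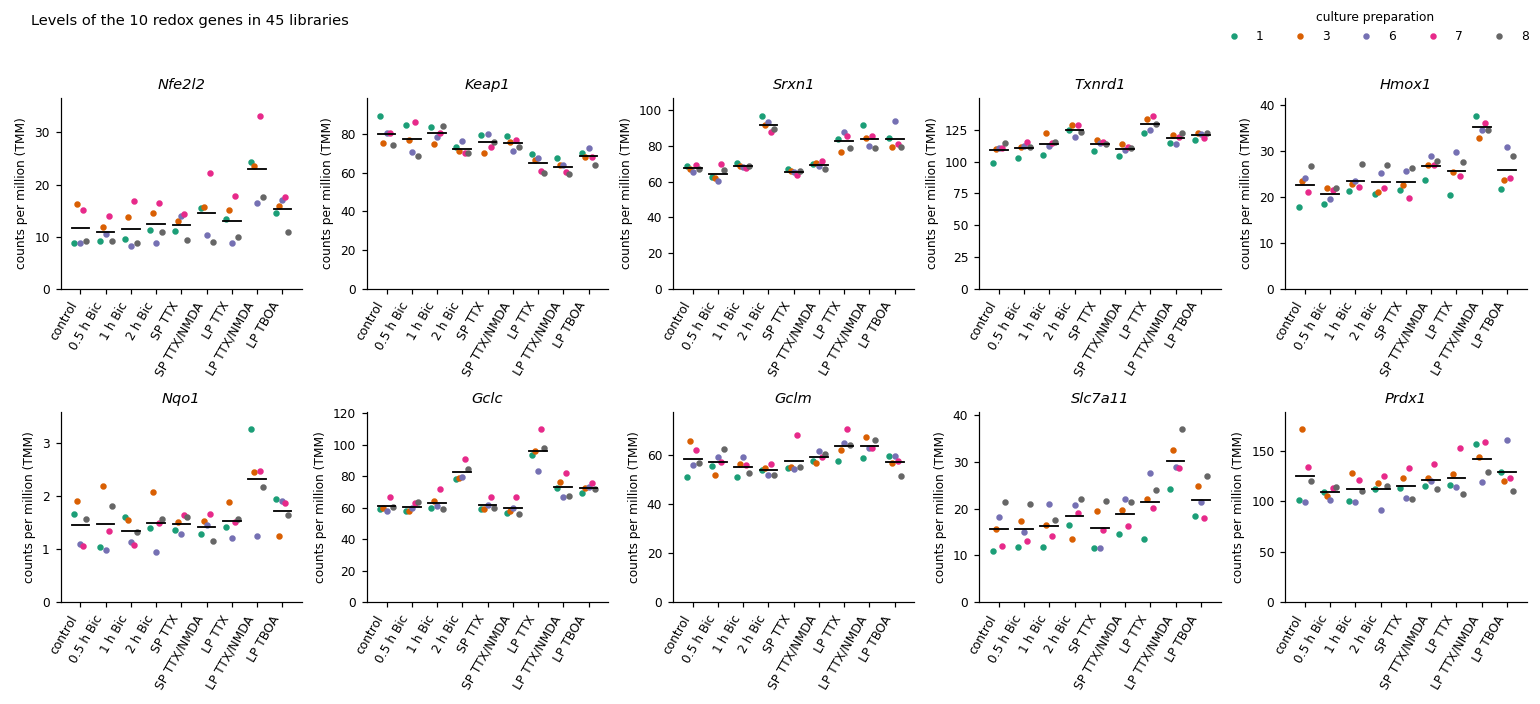
CPM of each gene (y axis, TMM scale, from 0) in the 9 conditions (x axis), with 1 point per library coloured by culture preparation and a black bar at the mean of 5. Nfe2l2, Slc7a11 and Hmox1 have their highest mean with LP TTX/NMDA, Srxn1 after 2 h Bic and Gclc with LP TTX.

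AP firing for 2 h raised Srxn1 and Gclc, while Nfe2l2 did not pass the test. Srxn1 (chromosome 2, 152105516 to 152111376, GRCm38) had 68.7, 66.9, 65.4, 69.0 and 66.8 CPM in the controls of preparations 1, 3, 6, 7 and 8, and 96.9, 91.7, 93.3, 87.9 and 89.3 CPM after 2 h Bic. All 5 Bic libraries lay above all 5 controls. The rise within preparations was 36.4% ± 6.14 (SD, n = 5), a log2 fold change of 0.44 (SE, the standard error, 0.07, edgeR adjusted p = 2.6e-05). Every adjusted p marked edgeR comes from its quasi-likelihood test and is corrected over all genes tested in the fit named. In unpaired fits it measures the difference against the spread between culture preparations. In the paired fit, with the preparation as a block, it measures it against the spread left once preparation differences are taken out. Gclc (chromosome 9, 77754535 to 77794485) had 59.3, 59.5, 58.0, 66.6 and 60.4 CPM in the controls and 78.3, 78.7, 79.3, 91.1 and 84.2 CPM after 2 h Bic. Again the groups did not overlap, and preparation 7 was highest in both. Its rise was 35.5% ± 3.19, a log2 fold change of 0.43 (SE 0.08, edgeR adjusted p = 9.3e-05).

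Txnrd1 (chromosome 10, 82833951 to 82897712) was also higher in 5 of 5 preparations after 2 h, with 119.3 to 129.0 CPM against 99.2 to 114.4 in the controls. The groups did not overlap, yet its log2 fold change of 0.18 (SE 0.07) did not pass the test (edgeR adjusted p = 0.13). The paired fit, with the preparation as a replicate block and weak genes removed by filterByExpr, called Txnrd1 (0.19, edgeR adjusted p = 0.017) and 29.3% of the genes it tested. DESeq2, filterByExpr alone and a fit of all 45 libraries also called Txnrd1. Thus 2 of 10 members were called after 2 h, both higher, where 9.02% of all tested genes and 18.6% of the 13592 genes with a mean of at least 1 CPM were called, a share close to that of the members. Nfe2l2 changed by 8.85% ± 15.1, with 8.75 to 16.4 CPM after 2 h against 8.75 to 16.3 CPM in the controls, and was higher in 3 of 5 preparations. Keap1 was lower in 5 of 5 preparations, by 9.44% ± 5.99, with overlapping groups and an edgeR adjusted p of 0.25. Gclm, the partner subunit of Gclc, was lower in 4 of 5 (log2 fold change −0.13, SE 0.08, edgeR adjusted p = 0.40).

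Of the 40 cell type markers, Sox9 of the astrocytes (log2 fold change 2.13) was called after 2 h Bic by the main test. The paired fit also called higher the astrocyte markers Slc1a3, Aldh1l1 and Aldoc, the neuronal Gad1 and Gad2, Mbp and Cspg4 of the oligodendrocyte lineage and Col1a1 of fibroblasts, and called the neuronal Tubb3 lower. The summed astrocyte markers were higher in 5 of 5 preparations, by 11.7% ± 9.39, as were the neuronal ones, by 7.37% ± 9.63, and those of endothelial cells and fibroblasts, by 16.9% ± 6.29. The part of these shifts in the members' changes was not tested.

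Earlier in the Bic series 0 members were called by edgeR, after 0.5 h (background 0.289% of genes, 1 member with an unadjusted p under 0.05) and after 1 h (background 1.16%, 0 members with such a p). DESeq2 also called 0 at both times. After 1 h Srxn1 had 67.4 to 70.4 CPM against 65.4 to 69.0 in the controls. Gclc had 59.2 to 71.6 CPM after 1 h against 58.0 to 66.6 in the controls.

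Among the Nrf2 partners and competitors, Maff, Mafk and Bach1 were called already after 1 h of Bic and rose further by 2 h. Of 12 genes in the list of Nrf2 regulators and partners, Nfe2l2 and Keap1 included, 1 was called after 0.5 h, 3 after 1 h and 4 after 2 h Bic. Maff, a small Maf protein that dimerizes with Nrf2 and lacks an activation domain of its own, went from 3.01 ± 0.84 CPM in the controls to 50.4 ± 7.07 CPM after 2 h, a log2 fold change of 3.98 (SE 0.13, edgeR adjusted p = 1.0e-22). Its log2 fold change was already 1.26 after 0.5 h and 2.92 after 1 h. Mafk, a second small Maf, rose by 1.081 and Bach1, the repressor that competes with Nrf2 for small Maf partners, by 1.13 on the log2 scale after 2 h. Bach1 thereby reached 70.4 ± 6.99 CPM, from 31.8 ± 3.86 in the controls. The third small Maf, Mafg, had 148.9 ± 7.26 against 142.9 ± 6.53 CPM and was not called (log2 fold change 0.05). Rbx1, the RING subunit of the CUL3 ligase, fell by 0.26 on the log2 scale. Over all 12 genes the median log2 fold change was 0.05, against −0.01 over all genes tested.

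Over all 7 redox lists, 69 matched genes are not members. After 2 h, 9.02% of all tested genes and 18.6% of genes of at least 1 CPM were called. Of the 69 genes 8 (11.6%) were called, 6 higher and 2 lower, with a median log2 fold change of 0.02. Of these 8, Maff, Mafk, Bach1 and Rbx1 belong to the regulators. Gpx8, a glutathione peroxidase family member of the endoplasmic reticulum, rose by 0.77 (SE 0.15, edgeR adjusted p = 0.00043), from 4.45 ± 1.41 to 7.81 ± 1.15 CPM. Sesn2, a stress-inducible sestrin, rose by 0.63 (SE 0.12, edgeR adjusted p = 0.00020), from 100.8 ± 17.96 to 156.7 ± 35.9 CPM. Chac2, which degrades glutathione, fell by 0.57 on the log2 scale (SE 0.13, edgeR adjusted p = 0.0019). Sesn3, named here after its value was seen because it completes the 8, rose by 0.28. None of the called genes belonged to superoxide and hydrogen peroxide removal (4 genes), NADPH supply (7) or haem, quinone and iron handling (10), whose medians were 0.07, 0.01 and −0.0002 on the log2 scale.

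In the SP, no member passed the main test. SP TTX compared with 1 h Bic, the passive effect, called 0 members by edgeR or DESeq2 (background 0.268%, 0 with an unadjusted p under 0.05). Srxn1 was nonetheless lower in 5 of 5 preparations by 4.58% ± 0.82, with 63.7 to 66.8 CPM against 67.4 to 70.4 CPM, groups that did not overlap (edgeR adjusted p = 0.88). SP TTX/NMDA compared with SP TTX, the active effect, called 0 members (background 4.28%, 1 with an unadjusted p under 0.05), also by DESeq2. Hmox1 (chromosome 8, 75093621 to 75100589) was higher in 5 of 5 preparations there, with 23.6, 26.9, 28.8, 26.8 and 27.7 CPM against 21.4, 22.6, 25.6, 19.8 and 26.2 CPM. The log2 fold change was 0.20 (SE 0.08, edgeR adjusted p = 0.25). The paired fit called Hmox1 (0.22, edgeR adjusted p = 0.034), where it called 16.2% of the genes it tested. When replicate 8 was left out, Slc7a11 was called instead (0.33, edgeR adjusted p = 0.027). Of the 10 neuronal markers 1 was called higher and 4 lower here, and their summed level was lower in 5 of 5 preparations (−6.9% ± 2.1). The microglia, oligodendrocyte lineage, and endothelial and fibroblast lists had 0 called genes. Of the 9 astrocyte markers only Slc1a2 was called (−0.38, edgeR adjusted p = 0.00018), and the list had a median log2 fold change of 0.09. Their summed level, to which Slc1a2 and Gfap give most, lay the other way at −9.61% ± 16.2. In the paired fit Slc1a3 was called higher as well (edgeR adjusted p = 0.016), and the markers' part in the members' values was not tested.

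SP TTX/NMDA compared with 1 h Bic, the total effect, likewise called 0 members by edgeR and DESeq2 (background 4.3%, 1 with an unadjusted p under 0.05). The paired fit called 3, all higher in 5 of 5 preparations, where it called 27.3% of the genes it tested. Nfe2l2 had a paired log2 fold change of 0.32 (edgeR adjusted p = 0.0067), Slc7a11 0.20 (edgeR adjusted p = 0.016) and Hmox1 0.19 (edgeR adjusted p = 0.017). Without replicate 8, Nfe2l2 was called in the unpaired test too (0.40, edgeR adjusted p = 0.031).

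In the LP, TTX after 1 h of Bic raised Gclm. Gclm (chromosome 3, 122245557 to 122270732) had 53.8, 54.8, 51.9, 56.5 and 51.7 CPM after 2 h Bic and 57.5, 62.2, 64.7, 70.6 and 64.1 CPM with LP TTX. All LP TTX values lay above all values of 2 h Bic. The rise within preparations was 18.8% ± 8.17, a log2 fold change of 0.24 (SE 0.06, edgeR adjusted p = 0.022), and it was not called when replicate 6 (0.23, edgeR adjusted p = 0.11) or replicate 7 (0.23, edgeR adjusted p = 0.11) was left out. It was the only member called in this passive effect by the main test (background 4.65%, and 10.4% among genes of at least 1 CPM, so that 1 of 10 members is near the background). The paired fit called 4 members, where it called 32% of the genes it tested, and DESeq2 called the same number (7.26%). Of the markers, 1 of 9 for astrocytes and 1 of 8 for the oligodendrocyte lineage were called lower by the main test. The other marker lists had 0 called genes. The markers' part in the members' changes was not tested.

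Its partner Gclc reached its highest level of all conditions with LP TTX, at 93.3, 96.0, 83.0, 109.8 and 97.5 CPM. That was above 2 h Bic in 5 of 5 preparations by 16.4% ± 6.97, a log2 fold change of 0.21 that missed the threshold (SE 0.07, edgeR adjusted p = 0.072) and passed it in the paired fit (0.20, edgeR adjusted p = 0.0016), in DESeq2, and without replicate 6 (0.25, edgeR adjusted p = 0.046) or replicate 8 (0.23, edgeR adjusted p = 0.040). Srxn1 lay on the other side, at 83.8, 76.6, 87.8, 85.5 and 78.8 CPM, below the values of 2 h Bic in each preparation. Its log2 fold change was −0.16 (SE 0.06, edgeR adjusted p = 0.15), and −0.17 in the paired fit (edgeR adjusted p = 0.0052). Keap1 was lower in 5 of 5 preparations by 10.2% ± 4.18 with groups that did not overlap, at −0.16 (edgeR adjusted p = 0.15) and −0.17 in the paired fit (edgeR adjusted p = 0.0045). Srxn1 and Gclc, both called higher after 2 h Bic, thus lay on opposite sides of those same 2 h Bic libraries. Maff fell by 0.76 and Mafk by 0.42 on the log2 scale, and Cul3, the scaffold of the ligase that degrades Nrf2, rose by 0.27 (edgeR adjusted p = 0.0080).

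Adding NMDA to TTX in the LP, the active effect, raised Nfe2l2, Slc7a11, Hmox1 and Nqo1 and lowered Gclc. Nfe2l2 (chromosome 2, 75675513 to 75704641) had 13.3, 15.2, 8.74, 17.7 and 9.85 CPM in LP TTX and 24.4, 23.6, 16.4, 33.2 and 17.6 CPM in LP TTX/NMDA. The groups overlap, since preparation 7 had more with TTX than preparations 6 and 8 with TTX/NMDA, but every preparation was higher with TTX/NMDA, by 78.6% ± 13.6 (SD, n = 5). The log2 fold change was 0.81 (SE 0.16, edgeR adjusted p = 0.00024). Slc7a11 (chromosome 3, 49892526 to 50443614) had 13.6, 22.1, 27.6, 20.2 and 24 CPM with TTX and 24.1, 32.4, 28.8, 28.7 and 36.98 CPM with TTX/NMDA. It rose in every preparation, least in preparation 6, with a log2 fold change of 0.48 (SE 0.12, edgeR adjusted p = 0.0039).

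Hmox1 had 20.4, 25.4, 29.7, 24.5 and 27.5 CPM in LP TTX and 37.6, 32.8, 34.4, 35.9 and 34.6 CPM in LP TTX/NMDA. The groups did not overlap, and preparation 1 went from the lowest to the highest value. Its log2 fold change was 0.45 (SE 0.09, edgeR adjusted p = 0.00018). Nqo1 (chromosome 8, 107388225 to 107403206) had 1.42, 1.89, 1.21, 1.52 and 1.57 CPM with TTX and 3.25, 2.45, 1.25, 2.46 and 2.16 CPM with TTX/NMDA. Its log2 fold change of 0.62 (SE 0.19, edgeR adjusted p = 0.019) rested on preparation 1, without which it was 0.43 (edgeR adjusted p = 0.17).

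Gclc fell from the LP TTX values given above to 72.7, 76.5, 66.7, 82.0 and 67.2 CPM with LP TTX/NMDA. No value with TTX/NMDA reached the lowest value with TTX, and the fall was 0.40 on the log2 scale (SE 0.08, edgeR adjusted p = 0.00017). Gclm, the other ligase subunit, moved up in 3 preparations and down in 2, with 58.8 to 67.4 CPM against 57.5 to 70.6 CPM (log2 fold change −0.01, edgeR adjusted p = 0.93). Srxn1 (0.02, edgeR adjusted p = 0.89) and Keap1 (−0.05, edgeR adjusted p = 0.64) were not called. Prdx1 (chromosome 4, 116685544 to 116700822) was higher in 5 of 5 preparations by 15.1% ± 12.7 with a log2 fold change of 0.19 (edgeR adjusted p = 0.14). It was called by the paired fit (0.22, edgeR adjusted p = 0.0014) and without replicate 7 (0.23, edgeR adjusted p = 0.041). The paired fit called 62.1% of the genes it tested here. Txnrd1 was lower in 5 of 5 by 8.55% ± 2.80 (log2 fold change −0.14, edgeR adjusted p = 0.12), and was called by the paired fit (−0.11, edgeR adjusted p = 0.028) and by DESeq2. In all, 5 of 10 members were called, 4 higher and 1 lower, where 23.3% of all tested genes and 46.9% of those with at least 1 CPM were called. The share of members called thus lies close to that of genes of at least 1 CPM.

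**Figure D2:**
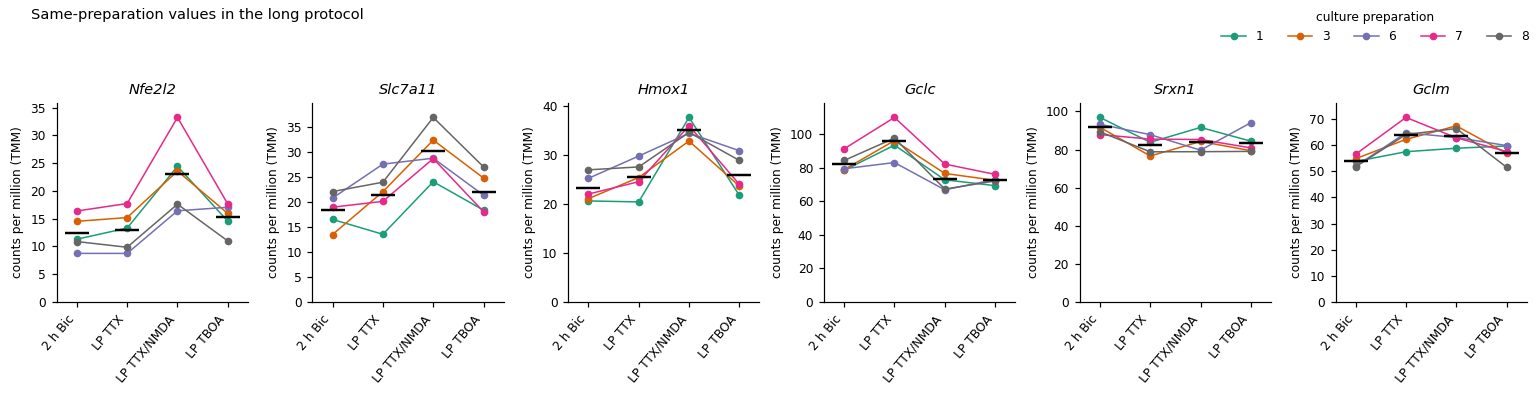
CPM (y axis, TMM scale, from 0) of 6 members in 2 h Bic and the 3 LP conditions (x axis), with lines joining libraries of 1 culture preparation and black bars at the means of 5. Nfe2l2, Slc7a11 and Hmox1 climb from LP TTX to LP TTX/NMDA in all 5 preparations, while Gclc drops in all 5.

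Cell type markers also shifted in the same comparison. Of 9 astrocyte markers, 8 rose and 1, the glutamate transporter gene Slc1a2, fell, with a median log2 fold change of 0.84. The median was 0.76 for the oligodendrocyte lineage markers and 0.10 for the 10 members. Their summed level rose within preparations by 34.7% ± 11.5 (SD, n = 5), from a range of 1074 to 1631 CPM in LP TTX to 1297 to 2288 CPM in LP TTX/NMDA. The summed oligodendrocyte lineage markers (5 of 8 called higher) rose by 71.0% ± 22.3, from 100.9 to 167.8 CPM up to 158.9 to 313.0 CPM. Of 7 microglia markers 2 were higher, at a summed 5.58 to 7.43 CPM before and 6.46 to 8.94 CPM after, and of 6 endothelial and fibroblast markers 3 were higher, at 54.0 to 91.9 CPM before and 64.1 to 130.9 CPM after. The 10 neuronal markers fell by 19.2% ± 3.97 in sum, 5 of them called lower. The part of these shifts in the members' changes was not tested.

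In the wider redox lists genes were called in both directions with TTX/NMDA. Of the 69 genes that are not members, 21 were higher and 9 lower than in LP TTX, a called share of 43.5% beside the 46.9% among genes of at least 1 CPM. Their median log2 fold change was 0.11, against 0.11 over all genes tested and −0.01 over genes of at least 1 CPM. Among 18 glutathione users 9 rose and 0 fell by edgeR, a share of 50.0% that is near that background, with a median of 0.24. Mgst1, a microsomal glutathione transferase, rose by 0.83 (SE 0.14, edgeR adjusted p = 3.3e-05), from 7.21 ± 1.72 to 13.03 ± 2.53 CPM. The transferase Gstm1 rose by 0.81 (SE 0.15, edgeR adjusted p = 0.00012), to 170.0 ± 50.3 CPM, and the peroxidases Gpx1 by 0.65 (SE 0.10, edgeR adjusted p = 8.3e-06) and Gpx3 by 0.57 on the log2 scale. Sod3, the extracellular superoxide dismutase, rose by 0.83 (SE 0.21, edgeR adjusted p = 0.0034) from 3.601 ± 1.28 to 6.399 ± 2.14 CPM. In the list of haem, quinone and iron handling 6 of 10 genes rose and 0 fell by edgeR, Hmox1 and Nqo1 included, with the ferritin genes Fth1 (0.40) and Ftl1 (0.43), the iron exporter gene Slc40a1 (0.52) and Nqo2 (0.49). The last 4 were named after their values were seen, to complete that list.

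In the same comparison 5 of the 12 Nrf2 regulators and partners were called lower and 1, Nfe2l2, higher. This share of 50.0% is near the 46.9% called among genes of at least 1 CPM. Cul3 fell by 0.47 on the log2 scale (SE 0.08, edgeR adjusted p = 2.1e-05), from 218.0 ± 17.7 to 158.8 ± 17.5 CPM. Btrc, a substrate receptor of another ligase that targets Nrf2, fell by 0.37 (SE 0.06, edgeR adjusted p = 5.4e-05), the repressor Bach2 by 0.37 and Mafk by 0.30 on the log2 scale. Sesn2, raised by AP firing, fell by 0.42 (SE 0.09, edgeR adjusted p = 0.00059), from 157.4 ± 23.3 to 118.8 ± 14.2 CPM. In the thioredoxin, peroxiredoxin and sestrin list 4 of 18 genes rose and 2 fell (33.3% called). The glutathione synthesis and cystine supply list, with Gclc, Gclm and Slc7a11 among its 10 genes, had 2 higher and 1 lower (30.0%). NADPH supply had 1 of 7 genes higher and 1 lower (28.6%), and superoxide and hydrogen peroxide removal 2 of 4 higher and 1 lower (75.0%). Over all genes tested 23.3% were called. The plot of the lists shows each gene.

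**Figure D3:**
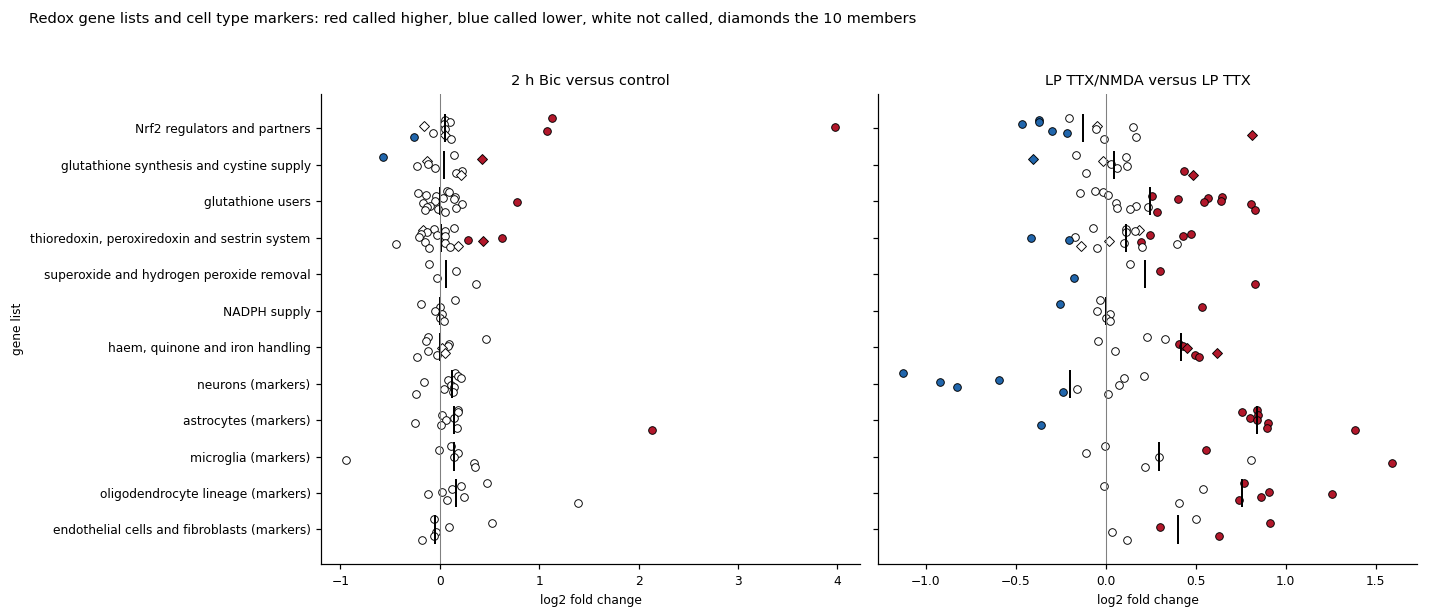
Log2 fold changes (x axes, different ranges) of the genes of 7 redox lists and 5 marker lists (y axis) after 2 h Bic compared with the control (left) and in LP TTX/NMDA compared with LP TTX (right), with filled points for called genes, diamonds for the members and bars at list medians. On the left Maff stands apart at 3.98, and on the right 8 of 9 astrocyte markers lie to the right of 0 with most glutathione users.

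Compared with 2 h of uninterrupted Bic, LP TTX/NMDA called 7 of 10 members, 6 higher and 1 lower (background 22.8%, and 45.3% among genes of at least 1 CPM). Nfe2l2 was higher by 86.3% ± 24.2, Slc7a11 by 68.6% ± 41.4, Hmox1 by 53.3% ± 21.7, Nqo1 by 57.9% ± 45.8, Prdx1 by 26.1% ± 10.5 and Gclm by 18.6% ± 8.06 (mean within preparations ± SD, n = 5), each in 5 of 5 preparations. Nfe2l2, Slc7a11, Hmox1 and Gclm did not overlap with 2 h Bic, although for Nfe2l2 the nearest values were 16.38 CPM in 2 h Bic and 16.42 CPM in LP TTX/NMDA. Without preparation 1 the log2 fold change of Nqo1 was 0.53 and not called (edgeR adjusted p = 0.11). Keap1 (chromosome 9, 21229730 to 21239361) was the member that fell, from 73.0, 71.3, 76.5, 70.2 and 69.9 CPM to 67.8, 64.1, 63.8, 60.1 and 59.1 CPM. Its log2 fold change was −0.21 (SE 0.07, edgeR adjusted p = 0.021), and it was not called when replicate 3, 6 or 7 was left out (edgeR adjusted p = 0.089, 0.14 and 0.11). Gclc, between its Bic and its control level, was not called (−0.19, edgeR adjusted p = 0.061), but was lower in the paired fit (−0.16, edgeR adjusted p = 0.018) and by DESeq2. That paired fit called 56.6% of the genes it tested. Srxn1 was lower in 5 of 5 preparations, with overlapping groups (log2 fold change −0.14, edgeR adjusted p = 0.14), and was called lower by DESeq2. DESeq2 called 9 of 10 members here, 6 higher and 3 lower (background 22.8%). Of the 9 astrocyte markers 7 were called higher and 1 lower here (summed level 32.5% ± 13.7 higher), and their part in the members' changes was not tested.

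The comparisons of LP TTX/NMDA share its 5 libraries, so that their values are not independent. Against the untreated control, LP TTX/NMDA called 7 of 10 members, again 6 higher and 1 lower (background 19.5%, and 36.8% among genes of at least 1 CPM). Nfe2l2 stood 104.2% ± 47.9 and Slc7a11 98.6% ± 32.8 above the control, and neither overlapped with it. For Nfe2l2 the nearest values were 16.27 CPM in the control and 16.42 CPM in LP TTX/NMDA. Slc7a11 had 11.1, 15.7, 18.2, 12.1 and 21.5 CPM in the controls. Hmox1 was 59.2% ± 33.1 and Nqo1 61.9% ± 50.1 higher, Srxn1 24.6% ± 5.71 and Gclc 20.1% ± 6.87 higher, and Keap1 21.1% lower on average, with a log2 fold change of −0.35 (SE 0.08, edgeR adjusted p = 0.0016). The Gclc call, at 0.26 (edgeR adjusted p = 0.023), was lost without replicate 1, 3, 6 or 7 (edgeR adjusted p from 0.052 to 0.082), and the Nqo1 call without replicate 1 (0.066) or replicate 7 (0.059). Txnrd1 and Gclm were higher in 5 of 5 preparations, by 8.44% ± 4.84 and 9.71% ± 7.22, and were not called. Prdx1, lower in preparation 3 alone, was called when that replicate was left out (0.30, edgeR adjusted p = 0.015, against 0.17 and 0.32 with it). The summed astrocyte markers were 48.8% ± 27.2 above the control, with 8 of 9 called higher, and their part was likewise not tested. The fold-change plot gives all 12 comparisons.

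**Figure D4:**
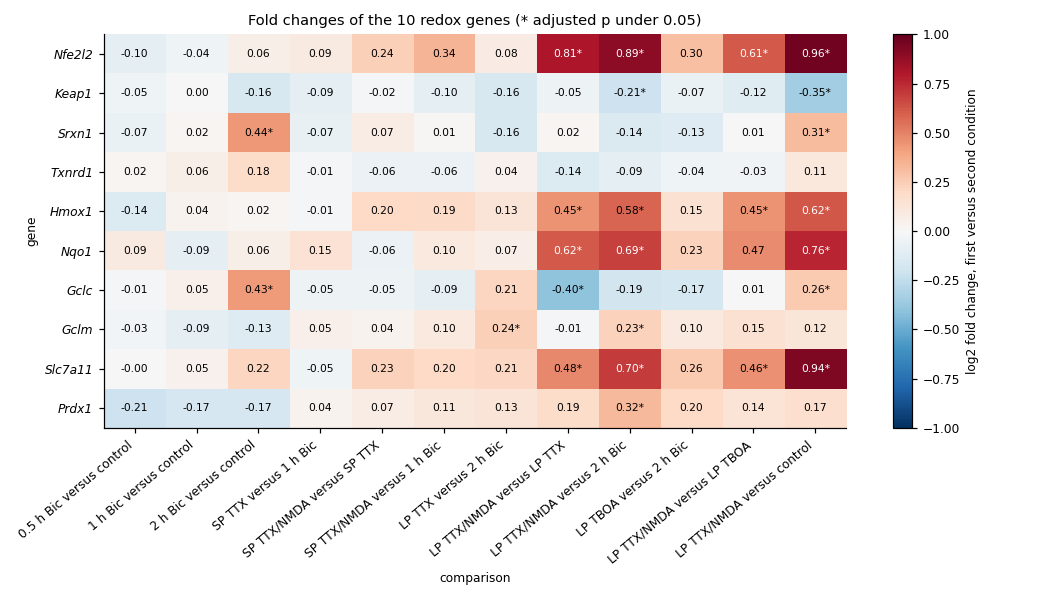
Log2 fold changes of the 10 members (rows) in the 12 comparisons (columns), with colour and printed value on one scale and an asterisk where the adjusted p is under 0.05. Asterisks are absent from the 0.5 and 1 h Bic columns, the SP columns and the TBOA column, and the largest values stand in the LP TTX/NMDA columns.

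TBOA, which lets synaptically released glutamate spill over, called 0 members compared with 2 h Bic by edgeR or DESeq2 (background 0.602%, 5 members with an unadjusted p under 0.05 by edgeR). Nfe2l2 was higher in 5 of 5 preparations, with 14.5, 15.9, 17.1, 17.6 and 11.0 CPM against 11.3, 14.5, 8.75, 16.4 and 10.9 CPM after 2 h Bic. Preparation 6 gained most and preparation 8 hardly moved. The log2 fold change was 0.30 (SE 0.13, edgeR adjusted p = 0.53). Gclc was lower in 5 of 5 preparations by 11.8% ± 3.82, with 69.2 to 75.9 CPM and no overlap with 2 h Bic, and its edgeR adjusted p was 0.37 (paired fit 0.058). Without replicate 8 there were calls for Nfe2l2 (0.36, edgeR adjusted p = 0.018) and Prdx1 (0.26, edgeR adjusted p = 0.014) and the number of all genes called went from 191 to 493. The astrocyte markers, 0 of 9 called by edgeR, summed to 1285 to 1662 CPM with TBOA and 1114 to 1592 CPM after 2 h Bic. The other marker lists also had 0 called genes by the main test.

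Set directly against TBOA, LP TTX/NMDA was higher for 3 of 10 members (background 16.6%, and 33.4% among genes of at least 1 CPM, a share close to that of the members). Hmox1 had 21.7, 23.6, 30.8, 23.97 and 28.9 CPM with TBOA, all below its TTX/NMDA values, a log2 fold change of 0.45 (SE 0.09, edgeR adjusted p = 0.00018). Slc7a11 was higher in 5 of 5 preparations by 38.4% ± 11.8 (0.46, SE 0.10, edgeR adjusted p = 0.0015). Nfe2l2 was higher in 4 of 5, with preparation 6 slightly lower at 16.4 against 17.1 CPM (0.61, SE 0.13, edgeR adjusted p = 0.00080). Gclc had nearly the same level in both (0.01, SE 0.07, edgeR adjusted p = 0.98). The paired fit called 6 members, adding Nqo1 (0.54, edgeR adjusted p = 0.022), Gclm (0.16, edgeR adjusted p = 0.036) and Keap1 (−0.12, edgeR adjusted p = 0.042), where it called 47.4% of the genes it tested. Without replicate 6 the unpaired test called 5, with Nqo1 (0.60) and Prdx1 (0.27) added. The summed astrocyte markers were 21.1% ± 28.2 higher than with TBOA, 7 of 9 called higher and 1 lower, and their part in these differences was not tested.

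Whether the interventions acted differently in the 2 protocols was tested as an interaction over 20 libraries. For the passive effect 0 members were called by edgeR and DESeq2 (background 0.256%, 1 with an unadjusted p under 0.05), and for the active effect 0 by edgeR (background 2.57%, 4 with an unadjusted p under 0.05) and 1, Gclc, by DESeq2. The largest difference relative to its error was that of Gclc, whose active effect was lower in the LP by 0.34 on the log2 scale (SE 0.10, edgeR adjusted p = 0.066). It was called at −0.34 by the paired fit (edgeR adjusted p = 0.00048). The paired fit also called a stronger LP active effect for Nfe2l2 (0.66, edgeR adjusted p = 0.0042) and Nqo1 (0.71, edgeR adjusted p = 0.022), where it called 25% of the genes it tested, and a higher LP passive effect for Gclc (0.25, edgeR adjusted p = 0.025), where it called 2.01%.

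Ordered by mean level, LP TTX/NMDA stood alone at the top for Nfe2l2 (23.1 ± 6.70 CPM), Slc7a11 (30.2 ± 4.81) and Hmox1 (35.1 ± 1.81), beyond the next condition by more than the larger of the neighbouring SDs. The other neighbours in these 3 orders, which ran from 0.5 h Bic (11.0, 15.7 and 20.6 CPM) upwards, did not differ beyond their spread. For Srxn1, SP TTX (65.5 ± 1.18 CPM) lay below the control (67.4 ± 1.49) by 1.82 CPM, also beyond their spread. Its LP conditions (82.5 to 84.0 CPM) were set apart from the conditions of up to 1 h (64.2 to 69.4 CPM), and 2 h Bic (91.8 ± 3.52) from both. Gclc likewise split into conditions of up to 1 h (59.5 to 63.3 CPM), LP TBOA and LP TTX/NMDA (72.5 and 73.0), 2 h Bic (82.3 ± 5.46) and LP TTX (95.9 ± 9.64). Keap1 fell into 2 groups, with the 3 LP conditions lowest (63.0 to 68.5 CPM) and the others at 72.2 to 80.4 CPM. Gclm had LP TTX and LP TTX/NMDA (63.8 and 63.7 CPM) above the other 7 conditions (53.7 to 59.1), and Txnrd1 had 2 h Bic and LP TTX (125.0 and 129.3 CPM) above the rest (109.1 to 120.6). For Nqo1 (1.34 to 2.31 CPM) and Prdx1 (108.8 to 141.3 CPM) no neighbours differed beyond their spread.

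Preparations differed most for Nfe2l2 and Slc7a11. Averaged over the 9 conditions, Nfe2l2 ran from 10.5 CPM in preparation 8 to 18.6 in preparation 7, a 1.76-fold span. Lowest and highest in the same preparations were the summed markers of astrocytes (1144 and 1588 CPM), oligodendrocyte lineage (124.0 and 197.3) and microglia (5.612 and 7.185). Those of endothelial cells and fibroblasts were lowest in preparation 8 and highest in preparation 3. Neuronal markers were lowest in preparation 3 and highest in preparation 1. Slc7a11 spanned 1.597-fold in another order, from 14.8 CPM in preparation 1 to 23.7 in preparation 8. Srxn1 spanned 1.05-fold and Txnrd1 1.083-fold. Nfe2l2 and Slc7a11 had the widest range of condition means (1.04 and 0.92 on the log2 scale), and the genes with the most similar profiles over the 9 condition means were looked up for both. For Nfe2l2 these were Serpine2 (Pearson's r = 0.999), Tnfaip8 (0.999) and Car8 (0.994), with r of 0.955, 0.853 and 0.824 over the 45 libraries. For Slc7a11 they were Pttg1ip (0.991), Rhoq (0.989) and Itgb1 (0.986), with 0.270, 0.698 and 0.357 over the libraries. These correlations are descriptions over conditions that share preparations.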

How the data were processed

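RNA was sequenced in 45 libraries, 9 conditions with 5 culture preparations each. Per the labels and the study's methods, the authors enriched poly-A RNA, made strand-specific libraries (single-end, 75 cycles), converted reads with bcl2fastq (version 2.20.0.422), aligned them with STAR (2.5.4b) to GRCm38 and counted sense-strand reads per Ensembl gene with featureCounts (1.6.5), with multimapping reads and reads shared between genes left out. They deposited raw counts with no normalization. Total counts ranged from 11316580 to 81129276 per library (median 26239614), which sets the precision of weak genes such as Nqo1. Nfe2l2, Txnrd1, Gclm and Slc7a11 share their span and strand with other gene models (Gm24996, Eid3, Gm6061, and Gm37498 and Gm37692), whose shared reads were not counted.

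Symbols, positions and exon lengths came from GENCODE M21 (GRCm38), which named 54495 of 54532 identifiers. Each pair of conditions was fitted alone with edgeR's quasi-likelihood test (edgeR 4.0.16, R 4.3.3), TMM scaling and all genes with at least 1 read, and a gene was called at an adjusted p under 0.05 (Benjamini-Hochberg, over all genes tested). Interactions used the 20 libraries of 4 conditions. The standard error is the log2 fold change divided by the square root of F. Profiles and ranges of condition means used log2(CPM + 0.5). An exact two-sided sign-flip test over 5 preparations cannot go below p = 0.0625 and was not used for calls. Alternatives were the replicate number as a block over genes passing filterByExpr, filterByExpr alone, RLE size factors, DESeq2 1.42.0, all 45 libraries in 1 fit, and leaving out each replicate. The fit was also run on simulated counts with the same dispersion for every gene and no preparation effect. That run therefore does not bear on the spread between these preparations. The labels give the culture preparation, which pairs the libraries: same-preparation libraries deviated together from their condition means (mean correlation 0.446 across 13592 genes of at least 1 CPM), against −0.11 between preparations.

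The members, the 7 gene lists (79 of 80 genes matched, Nnt not) and the 40 markers were chosen from textbook knowledge with earlier results of these data known. By rule, all members were described, with up to 5 called list genes of largest rise and fall in 2 h Bic versus control and in LP TTX/NMDA versus LP TTX (mean of at least 1 CPM, same direction in 5 of 5 preparations), and the 3 genes most like the 2 members of widest range. Other genes named were chosen after their values were seen. Hmox1 and Gclc had no promoter entry.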

Additional observations from a re-analysis of the deposited data

Results flagged for a closer look

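Among the 90 groups of 5 libraries formed by the members and conditions, 3 held a library whose gap to its nearest neighbour exceeded Dixon's 95% critical value (0.71 of the range), and chance gives this in about 1 of 20 groups. In the control, Txnrd1 had 99.2 CPM in preparation 1, against 110.2 to 114.4 CPM in the others. Gclc had 66.6 CPM in the control of preparation 7, against 58.0 to 60.4 CPM. In SP TTX, Gclm had 68.2 CPM in preparation 7, against 54.2 to 55.1 CPM in the others.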

How the results depend on the processing

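No call of a member reversed its direction under any alternative. RLE size factors moved no number of called members by over 1.5 times and all 90 condition means by less than 1 SD. With the replicate block and filterByExpr together, members called numbered 1 in place of 0 for SP TTX/NMDA versus SP TTX, 3 in place of 0 for SP TTX/NMDA versus 1 h Bic, 4 in place of 1 for LP TTX versus 2 h Bic, 6 in place of 3 for LP TTX/NMDA versus LP TBOA, and 1 and 3 in place of 0 for the passive and active interactions. That fit also added Txnrd1 after 2 h Bic, which filterByExpr alone adds too, Txnrd1 and Prdx1 in LP TTX/NMDA versus LP TTX and Gclc in LP TTX/NMDA versus 2 h Bic, and lost no call. DESeq2 called 4 members for LP TTX versus 2 h Bic and 1 for the active interaction, filterByExpr 2 and 1, and all libraries in 1 fit 1 for the latter. Leaving out single replicates gave 0 to 1 members for either SP TTX/NMDA comparison, 0 to 2 for LP TTX versus 2 h Bic and for LP TBOA versus 2 h Bic, and 3 to 5 for LP TTX/NMDA versus LP TBOA. It ended 13 calls of single members and gave 10 others, each given above with its comparison. Over all genes, the replicate block with filterByExpr moved the number called by over 1.5 times in 8 comparisons, from 357 to 618 (1 h Bic), 2789 to 4479 (2 h Bic), 1379 to 2548 and 1351 to 4217 (SP TTX/NMDA versus SP TTX and 1 h Bic), 1485 to 4978 (LP TTX), 191 to 417 (TBOA), 88 to 323 and 900 to 4165 (interactions). DESeq2 gave 2320 for LP TTX, 315 for TBOA and 183 and 1660 for the interactions. FilterByExpr gave 35 for SP TTX, where 85 were called, and 104 for TBOA, and all libraries in 1 fit 54 and 106. Without single replicates, SP TTX ranged from 52 to 163, the passive interaction from 39 upwards, the active interaction from 489, SP TTX/NMDA from 918 (versus SP TTX) and from 801 to 2068 (versus 1 h Bic), LP TTX from 909, and TBOA from 123 to 493. The cause of these moves was not tested.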
